A study of Mus musculus with 18 samples.

Results

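Transcripts of the Ndc80 complex, the kinetochore assembly made of the proteins Spc24, Spc25, Ndc80 and Nuf2, were followed in 3 populations of mouse blood progenitors with a mutated Dnmt1. The 4 genes were found by symbol among the 29717 gene symbols of the deposited count tables, and all 4 passed the filter on low counts in all 3 populations. Spc24 was chosen by its low value in mutant MPP1 cells, and the other 3 genes because their proteins bind to it. The MPP1 difference between mutants and controls is therefore given here as a description, without a p-value. The question was whether the partners of Spc24, or other populations, showed the same difference.

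The 18 libraries were made by CEL-Seq2, which counts polyadenylated molecules from their 3' ends, from lineage-negative BALB/c bone marrow progenitors. The genotype field gives the mutants as dnmt1-/- and the controls as wt, whereas the series text speaks of a missense, hypomorphic change in Dnmt1, the methyltransferase that copies DNA methylation onto new strands. Mutants and controls numbered 3 and 3 libraries in HSC (haematopoietic stem cells), 2 and 2 in MPP1 (early multipotent progenitors) and 4 and 4 in MPP4 (lymphoid-primed multipotent progenitors). Sequencing batches A and C held the HSC libraries, batch C the MPP1 libraries and batches A, B and C the MPP4 libraries, each with as many mutants as controls. Column names carry 8 ID numbers, 4 per genotype, which recur across populations except those of MPP4 mutant 2 and MPP4 control 2. Both MPP1 mutants share their ID numbers with HSC mutants 3 and 2 and with MPP4 mutants 3 and 4. Both MPP1 controls share theirs with HSC controls 2 and 3 and with MPP4 controls 3 and 4. Nothing in the labels ties an ID number to an animal, so the p-values reflect library-to-library spread, of which some may be technical.

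At the kinetochore, the Ndc80 complex forms a rod. Ndc80 and Nuf2 carry the heads that grip the spindle microtubule, and Spc24 and Spc25 form the opposite end, which docks on the Mis12 complex and on CENP-T. All of its subunits are needed for chromosomes to attach stably to the spindle, and their transcripts are known to peak in late cell cycle phases. Most stem cells of adult marrow are out of cycle, whereas multipotent progenitors divide more often.

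All 4 genes lie on the minus strand of the mouse genome (GRCm38, GENCODE M21) and code for protein. Spc24 occupies chr9:21755442-21760303 and its first annotated transcript has 5 exons. Spc25 lies at chr2:69193895-69206194 with 7 exons, Ndc80 at chr17:71496100-71526857 with 17 exons and Nuf2 at chr1:169497934-169531464 with 15 exons. Because all 4 members were higher in MPP4 than in HSC, start regions are shown from RefSeq (GRCm38.p6), which matched 3 of the 4 symbols and not Spc24. Each stretch runs on the gene's strand from 120 bases before the transcription start to base 30, counted from 1 at the start. Capitals mark the CHR motif (cell cycle genes homology region, letters TTTGAA) and the CCAAT box (letters CCAAT), which do not overlap each other in letters.
Spc25, chr2:69206184-69206333 minus strand: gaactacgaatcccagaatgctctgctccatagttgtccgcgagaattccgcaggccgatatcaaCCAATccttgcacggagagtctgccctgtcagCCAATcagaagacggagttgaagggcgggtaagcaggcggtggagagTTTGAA
Ndc80, chr17:71526828-71526977 minus strand: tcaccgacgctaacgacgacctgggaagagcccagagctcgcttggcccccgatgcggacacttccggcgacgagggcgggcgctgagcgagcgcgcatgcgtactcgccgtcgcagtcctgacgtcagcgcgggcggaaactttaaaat
Nuf2, chr1:169531435-169531584 minus strand: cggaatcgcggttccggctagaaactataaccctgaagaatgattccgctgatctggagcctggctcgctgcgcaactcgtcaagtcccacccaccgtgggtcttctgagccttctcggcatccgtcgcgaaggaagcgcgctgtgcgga

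Both motifs were searched on both strands from 250 bases before to 50 bases after the start. Spc25 held the CHR letters at bases 25 to 30 after the start and 2 CCAAT boxes at bases -55 to -51 and -23 to -19. Ndc80 held the CHR letters on the opposite strand at bases 30 to 35, which reach past the printed stretch. The Nuf2 window held neither set of letters. Of all 32851 promoters in the table, 17.9% held the CHR letters and 37.4% the CCAAT box, so either match is common and describes letters only.

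Library totals lay between 354642 and 1943562 counts (median 745850.5). Dnmt1 transcript was present in every library, at 118 to 308 CPM in HSC mutants against 98.3 to 277 CPM in HSC controls, 224 and 290 CPM in MPP1 mutants against 289 and 296 CPM in MPP1 controls, and 230.2 to 319 CPM in MPP4 mutants against 240.0 to 402 CPM in MPP4 controls. A missense allele need not alter the transcript level, so these values do not check the labels. Stem cell markers (6 of 6 in the tables) summed to 664 to 1603 CPM in HSC mutants and 1037 to 2094 CPM in HSC controls. Lymphoid-primed markers (5 of 5) summed to 1110 to 2134 CPM in MPP4 mutants and 1475 to 2686 CPM in MPP4 controls, against 70.3 to 164 CPM over all HSC libraries. Red cell markers (8 of 8) reached 232134 CPM in MPP4 mutant 2, 44163 CPM in MPP4 control 4, 31203 CPM in MPP1 control 2 and 13383 CPM in HSC mutant 1, and stayed at or below 361 CPM in the other 14 libraries. Neutrophil markers (6 of 6) were highest in those same 4 libraries, from 1801 to 33150 CPM. B cell markers (8 of 8) reached 14640 CPM in HSC control 1, where Cd79a was at 0, and T cell markers (4 of 4) stayed at or below 58.1 CPM. In bulk samples, fewer cells of a type and less RNA per cell cannot be told apart.

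Spc24, one of the pair that anchors the complex, had 10.7 and 18.8 CPM in MPP1 mutants, against 83.7 and 114 CPM in MPP1 controls. Both mutants lay below both controls. These levels rest on 4 and 9 counted molecules in the mutants, with exact Poisson 95% intervals of 2.91 to 27.4 and 8.58 to 35.6 CPM that cover counting error only, and on 113 and 62 molecules in the controls. The fitted log2 difference, mutant minus control, was -2.66 (SE 0.41), a 6.33-fold lower level with a 95% interval from -3.46 to -1.86 on the log2 scale. Of the 8004 genes tested in MPP1, 4 had a lower log2 difference, a place that goes with the choice of Spc24 and is not a result. Without MPP1 mutant 2 the log2 difference was -3.16, and without MPP1 control 2, the library with high red cell markers, it was -2.45 (SE 0.49). Neutrophil markers summed to 251.2 and 290 CPM in MPP1 mutants, against 702 and 6858 CPM in MPP1 controls. Ngp was at 0 in MPP1 mutant 1 and MPP1 control 1 and Ltf in MPP1 mutant 2, and the part of these markers in the Spc24 difference was not tested.

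In MPP4, Spc24 had 103, 55.9, 38.3 and 51.4 CPM in mutants 1 to 4, against 148, 100.2, 119 and 197 CPM in controls 1 to 4. The groups overlapped by 1 library only, since mutant 1 lay just above control 2. The mean was 62.3 ± 28.5 CPM in mutants and 141 ± 42.1 CPM in controls (SD, n = 4 each). The log2 difference was -1.16 (SE 0.27, 95% interval -1.70 to -0.63), with an edgeR adjusted p of 0.153 over 9392 genes and an unadjusted p of 0.000473. The difference therefore did not pass the threshold of 0.05 after adjustment, although of 4739 genes with a lower mutant level only 5 had a smaller p. Across the other settings tried, leaving aside the fit of batches A and B described next, the edgeR or DESeq2 adjusted p ran from 0.00360, with no filter on low counts, to 0.614, with no batch term.

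The MPP4 libraries can be set apart by whether their ID numbers also supplied the MPP1 libraries that chose Spc24. Within batch C, whose ID numbers did, the mean log2 CPM differed by -1.74, mutants minus controls. Within batch A it differed by -0.51 and within batch B by -0.82, each with 1 mutant and 1 control. Fitted alone, batch C gave a log2 difference of -1.72 with an edgeR adjusted p of 0.0171. A fit of batches A and B together, added after seeing the data, gave -0.64 (SE 0.43) with an edgeR adjusted p of 0.9996. All 3 batches had the lower level in mutants, but those of batches A and B, whose ID numbers supplied no MPP1 library, did not pass the test by themselves. The batch A libraries share theirs with HSC mutant 1 and HSC control 1. Leaving out MPP4 mutant 2, the library with the most red cell RNA, gave -1.25 (SE 0.29, edgeR adjusted p = 0.0640).

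In HSC, Spc24 had 50.2, 36.9 and 13.2 CPM in mutants 1 to 3, against 44.2, 45.4 and 43.0 CPM in controls 1 to 3. The 3 controls lay close together, whereas the mutants spread from above to far below them. The log2 difference was -0.40 (SE 0.34, 95% interval -1.07 to 0.26), with an edgeR adjusted p of 0.725. Within batch A the mutant was higher by 0.17 in log2 CPM, and within batch C the mutants differed by -0.92. Without HSC mutant 3, which shares its ID number with MPP1 mutant 1, the log2 difference was -0.08. In this population 1427 of 9147 genes had a lower log2 difference than Spc24.

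**Figure D1:**
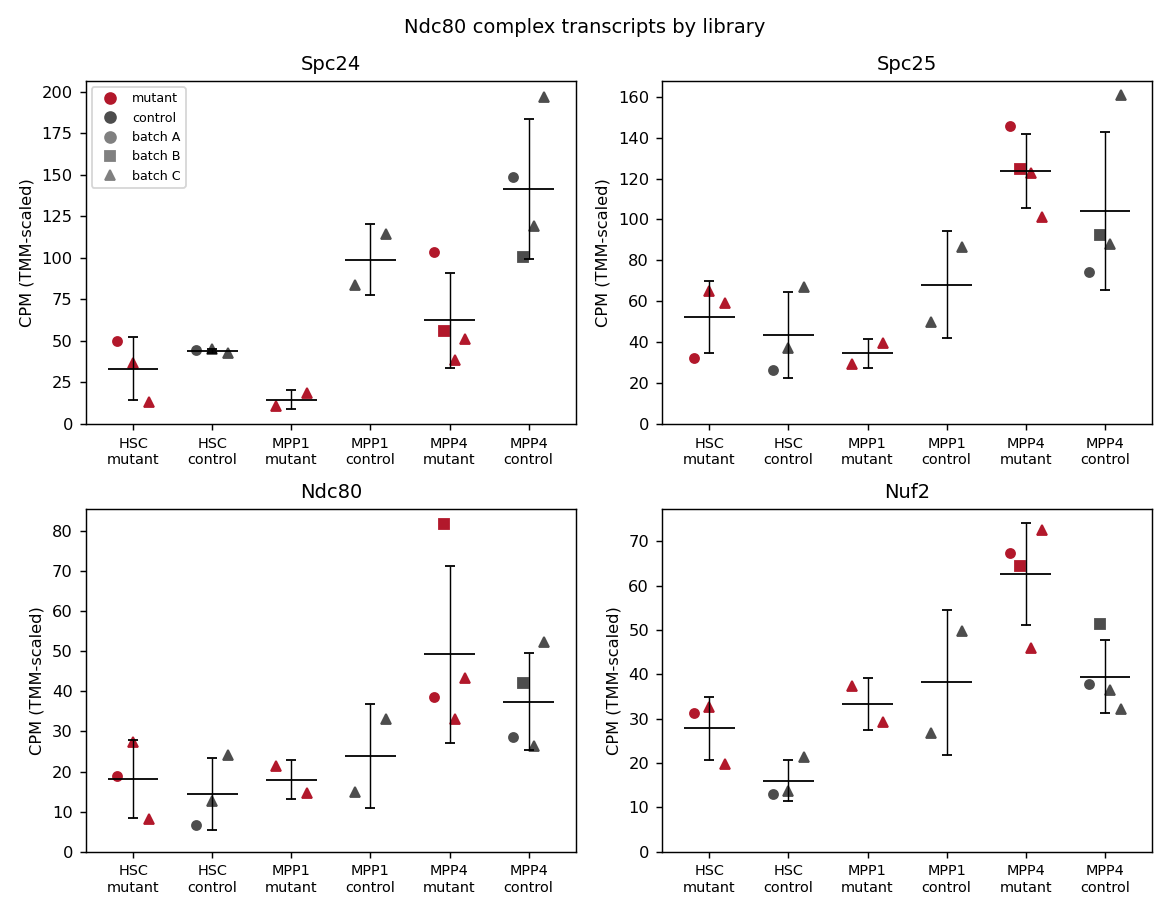
CPM of each Ndc80 complex gene in each of the 18 libraries, by population with mutants (red) left of controls (grey); circles, squares and triangles mark batches A, B and C, and bars the mean and SD. Spc24 in MPP1 mutants lies at 10.7 and 18.8 CPM under controls at 83.7 and 114 CPM, while the Nuf2 groups overlap in every population.

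Ordered by group mean, Spc24 was lowest in MPP1 mutants at 14.7 CPM, followed by HSC mutants at 33.4, HSC controls at 44.2, MPP4 mutants at 62.3, MPP1 controls at 98.9 and MPP4 controls at 141 CPM. Each group overlapped the next one in this order. Among mutants the lowest mean was in MPP1, whereas among controls it was in HSC. The MPP1 mutant values chose Spc24, so their place in this order is not a result.

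Spc25, the direct partner of Spc24 at the docking end, had 29.4 and 39.6 CPM in MPP1 mutants, against 49.6 and 86.5 CPM in MPP1 controls. The groups did not overlap, and the log2 difference was -0.90 (SE 0.39), smaller than that of Spc24. It was -0.50 without MPP1 control 2 and -1.31 without MPP1 control 1. In MPP4, Spc25 had 146, 125, 123 and 101 CPM in mutants, against 74.5, 92.6, 88.0 and 161 CPM in controls. Control 4 was the highest library and the other 3 controls lay below all mutants. The MPP4 log2 difference was 0.33 (SE 0.26, 95% interval -0.17 to 0.83), with an edgeR adjusted p of 0.881. Its sign was not stable, since batch C alone gave -0.10. In HSC, Spc25 had 32.2, 65.1 and 59.2 CPM in mutants, against 26.2, 37.2 and 67.1 CPM in controls. These groups overlapped, and mutants minus controls came to 0.33 in log2 (SE 0.31, edgeR adjusted p = 0.754).

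Ndc80, the larger of the microtubule-binding subunits, had 21.4 and 14.6 CPM in MPP1 mutants, against 14.8 and 33.1 CPM in MPP1 controls. The groups overlapped, and the log2 difference was -0.30 (SE 0.57). In MPP4 it had 38.6, 81.8, 33.2 and 43.3 CPM in mutants, against 28.7, 42.1, 26.5 and 52.2 CPM in controls. Mutant 2 stood highest and the others mingled with the controls. The MPP4 log2 difference was 0.48 (SE 0.29, 95% interval -0.09 to 1.05, edgeR adjusted p = 0.819). In HSC, Ndc80 had 18.8, 27.4 and 8.22 CPM in mutants, against 6.56, 12.7 and 24.2 CPM in controls. The groups covered nearly the same range, and mutants minus controls came to 0.55 in log2 (SE 0.49, edgeR adjusted p = 0.740).

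Nuf2, which pairs with Ndc80 along the rod, had 37.4 and 29.2 CPM in MPP1 mutants, against 26.7 and 49.7 CPM in MPP1 controls. Both mutants lay between the controls. The log2 difference was -0.12 (SE 0.44), but 0.31 without MPP1 control 2 and 0.05 without MPP1 mutant 2. In MPP4, Nuf2 had 67.3, 64.5, 46.0 and 72.7 CPM in mutants, against 37.9, 51.4, 36.6 and 32.1 CPM in controls. Only mutant 3 lay within the controls' range. The MPP4 log2 difference was 0.69 (SE 0.25, 95% interval 0.19 to 1.19), with an unadjusted p of 0.0141 and an edgeR adjusted p of 0.517. In HSC, Nuf2 had 31.4, 32.6 and 19.7 CPM in mutants, against 13.1, 13.6 and 21.5 CPM in controls. Mutant 3 lay under control 3, and the log2 difference was 0.89 (SE 0.40, unadjusted p = 0.0319, edgeR adjusted p = 0.452).

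Counted over the complex, 0 of 4 members passed the adjusted threshold in HSC, where 0.241% of all tested genes did, and 0 of 4 in MPP4, where 0.0852% did. At an unadjusted p under 0.05, edgeR gave 1 member in HSC (Nuf2) and 2 in MPP4 (Spc24 and Nuf2), beside 10% and 7.11% of all genes. DESeq2 called 0 of 4 members in either population. In MPP1 1 of 4 passed, Spc24 itself, where 0.225% of genes did, and nothing is read from that count. Groups without overlap and with mutants below controls were found for 2 members in MPP1 (Spc24 and Spc25) and for 0 in HSC and MPP4. The share of all tested genes with that pattern was 17% in MPP1, 4.37% in HSC and 1.66% in MPP4. No member had all mutants above all controls, a pattern seen in 16.8% of genes in MPP1, 4.97% in HSC and 1.43% in MPP4.

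The mutant effect on Spc24 in MPP4 minus that in HSC was -0.81 on the log2 scale (SE 0.34, unadjusted p = 0.0243, edgeR adjusted p = 1 over 10613 genes). For Spc25, Ndc80 and Nuf2 this difference was -0.06, -0.32 and -0.14. The test called 0 of 4 members, beside 0.0283% of all genes, and DESeq2 likewise called 0. Spc24 was the 1 member with an unadjusted p under 0.05, a level reached by 3.88% of genes. The mutant effects in these populations were thus not shown to differ.

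**Figure D2:**
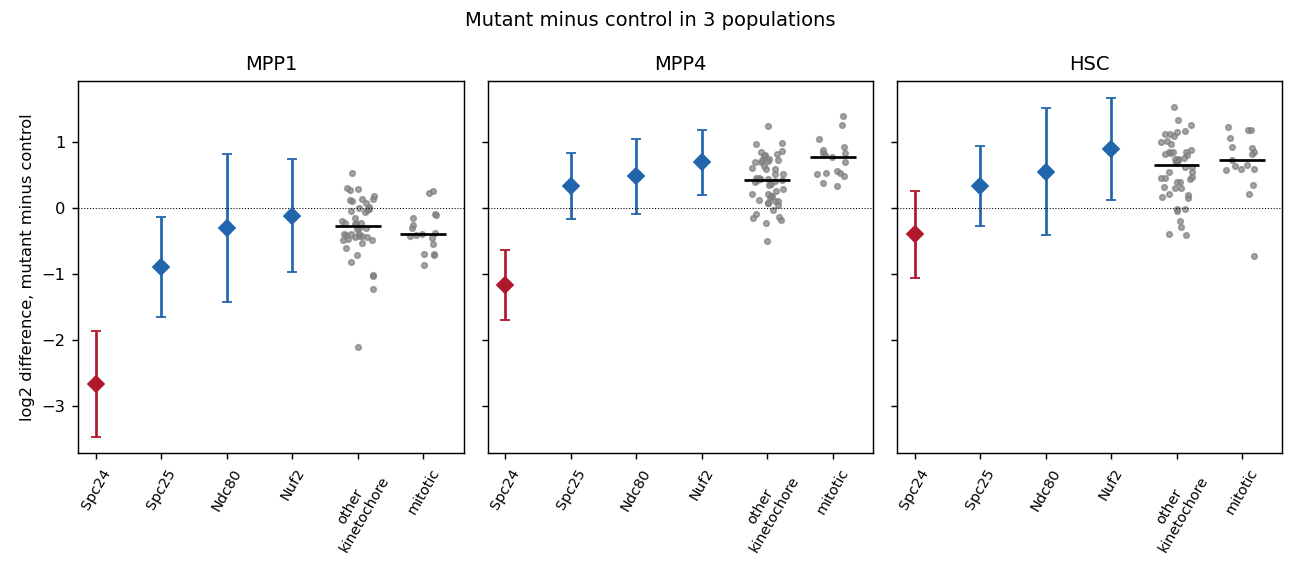
Log2 difference, mutant minus control, in MPP1, MPP4 and HSC for the 4 members (diamonds with 95% intervals), for each other kinetochore gene and for each mitotic gene outside the kinetochore (grey points, with the median as a line). In MPP4, Spc24 at -1.16 lies under a kinetochore median of 0.43, and its 3 partners lie above zero.

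Of the other kinetochore genes listed, 51 of 56 were in the tables. In MPP4 all of them lay above Spc24, while in HSC 1 lay below it. In MPP1, 44 were tested, with 11 above and 33 below zero and a median log2 difference of -0.27, against 0.00 over all genes. Spc24 was chosen by its low value there, so its place among them is not a result. The lowest of the 44 was Ska1, a subunit of the Ska complex that stabilises Ndc80 on microtubules, at -2.11 (SE 0.76). Ska1 lay near the floor, with 0 and 10.4 CPM in MPP1 mutants against 23.0 and 29.4 CPM in MPP1 controls. In MPP4, 51 were tested, with 44 above and 7 below zero and a median of 0.43. The lowest of them, Itgb3bp (the centromere protein CENP-R), was at -0.50 (SE 0.30) against -1.16 for Spc24. In HSC, 48 were tested, with 41 above and 7 below zero and a median of 0.65. There Cenpt, whose protein is a docking site of the complex, was at -0.41 and Spc24 at -0.40. These lowest genes, and the highest ones named next, were picked after their values were seen.

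By edgeR, 0 of the other kinetochore genes passed in HSC, in MPP4 or in MPP1, with 21 of 48, 17 of 51 and 4 of 44 at an unadjusted p under 0.05. Over all genes that level was reached by 10% in HSC, 7.11% in MPP4 and 4.86% in MPP1. DESeq2 called 2 of them in MPP4 and 0 in HSC and MPP1. Over the settings tried, the share of all genes called in MPP4 ran from 0.0107 to 0.485%. The highest in MPP4 was Plk1, a mitotic kinase that acts at kinetochores, at 1.24 (SE 0.24, edgeR adjusted p = 0.0510). The highest in HSC was Cenpi, of the inner kinetochore network, at 1.52 (SE 0.52, edgeR adjusted p = 0.321). By subgroup, all 4 tested genes of the chromosomal passenger complex, which corrects faulty attachments, lay above zero in MPP4 with a median of 0.77. All 7 genes of the spindle checkpoint, which delays anaphase until chromosomes are attached, lay above zero in MPP4 with a median of 0.43. In the Mis12 complex with Knl1, the docking platform of Spc24 and Spc25, all 6 lay above zero in MPP4, from 0.15 to 0.45. The Ska complex had all 3 genes above zero in MPP4 and all 3 below zero in MPP1, where they ran from -2.11 to -0.0068. The 7 genes below zero in MPP4 were 5 of the 18 of the inner kinetochore network and centromere (median 0.20) and 2 of the 6 of the corona and outer plate (median 0.39).

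Mitotic genes outside the kinetochore, such as Mki67, Cdk1 and Ccnb1, mostly took the same signs as the partners. All 17 were above zero in MPP4 (median 0.76) and 16 of 17 in HSC (median 0.73), whereas 15 of 17 were below zero in MPP1 (median -0.40). None of the 17 passed by edgeR in any of the 3 populations, with 12, 12 and 3 at an unadjusted p under 0.05 in MPP4, HSC and MPP1, beside 7.11%, 10% and 4.86% of all genes. DESeq2 called 2 of them in MPP4 and 0 in HSC and MPP1, where 0.0107 to 0.485% of all genes were called in MPP4 over the settings tried. The lowest in MPP4 was Cks2 at 0.33, and the lowest in MPP1 was Aurka, a spindle kinase, at -0.87.

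Set against these genes library by library, Spc24 had 27.9, 14.2, 8.74 and 13.1 CPM per 1000 CPM of the 17 mitotic genes in MPP4 mutants, against 81.9, 41.5, 48.1 and 59.1 in MPP4 controls. The groups did not overlap, whereas in CPM alone they overlapped by 1 library. All 17 mitotic genes had a log2 difference above zero in MPP4, which lowers the ratio in mutants. How many of all genes would separate by such a ratio was not tested. In MPP1 the values were 8.40 and 11.2 in mutants, against 49.6 and 53.2 in controls, again without overlap, but these contain the values that chose Spc24. In HSC they were 38.6, 19.3 and 9.37 in mutants, against 64.7, 46.5 and 37.7 in controls, where 1 mutant lay inside the controls' range. Between same-numbered HSC libraries the mutant was lower in 3 of 3 pairs, whereas the Spc24 level in CPM was lower in 2 of 3. Within batch C this pairing is uncertain, since HSC mutant 3 deviated with control 2 (r = 0.223) slightly more than with control 3 (r = 0.203). Replicate numbers in MPP1 and MPP4 also set the ID number of HSC mutant 3 beside that of HSC control 2. The 3 partners summed to 46.0 to 69.0 CPM per 1000 in MPP4 mutants and 61.0 to 77.9 in MPP4 controls, and to 62.1 to 65.5 in HSC mutants and 65.1 to 99.1 in HSC controls. In MPP1 they stood at 69.3 and 49.6 in mutants, against 53.9 and 79.0 in controls. The partners' groups overlapped in all 3 populations.

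**Figure D3:**
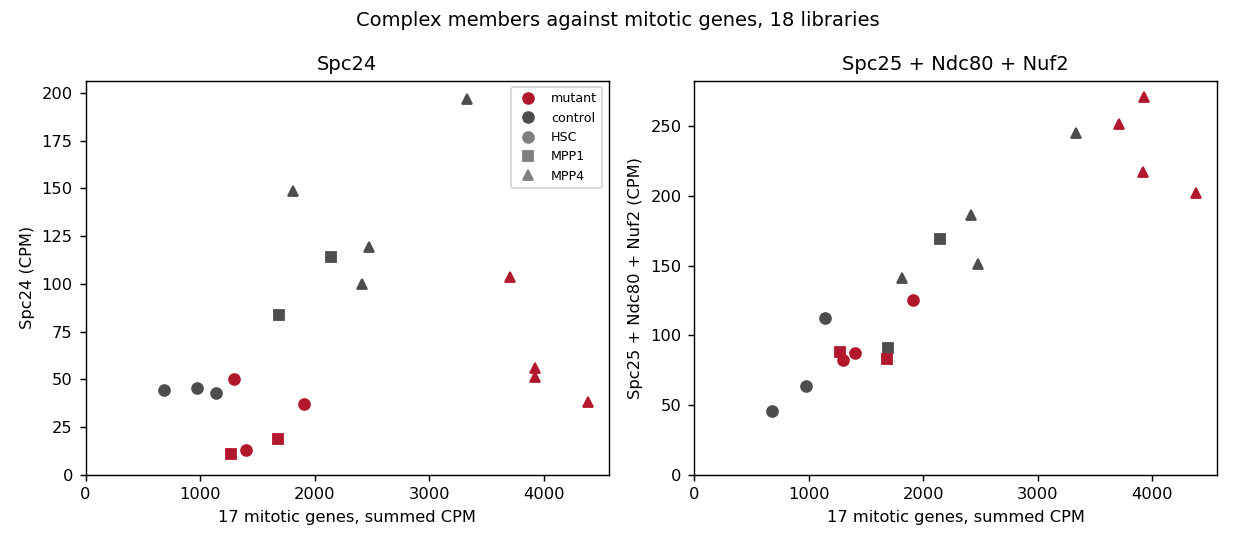
Spc24 (left) and the sum of Spc25, Ndc80 and Nuf2 (right) in CPM against the summed CPM of 17 mitotic genes, 1 point per library; circles, squares and triangles are HSC, MPP1 and MPP4, with mutants in red and controls in grey. The 4 MPP4 mutants reach the highest mitotic sums yet have 38.3 to 103 CPM of Spc24.

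The share of Spc24 among the counted molecules of the 4 genes does not depend on scaling between libraries. In MPP4 it was 29.1, 17.1, 16.0 and 19.1% in mutants, against 51.3, 34.98, 44.1 and 44.5% in controls. Every MPP4 mutant lay below every MPP4 control, whereas Spc24 in CPM overlapped by 1 library. The 3 partners had log2 differences above zero in MPP4, which lowers the share in mutants. MPP4 mutants 3 and 4 and controls 3 and 4 share ID numbers with the MPP1 libraries that chose Spc24. How many of all genes would separate by such a share was not tested. The Wilson 95% interval of mutant 1, 24.2 to 34.6%, overlapped that of control 2, 31.4 to 38.7%. In MPP1 the share was 10.8 and 18.4% in mutants, against 47.9 and 40.3% in controls, with Wilson intervals of 4.29 to 24.7% and 9.98 to 31.4% in the mutants. In HSC it was 37.8, 22.8 and 13.1% in mutants, against 49.1, 41.7 and 27.6% in controls. These groups overlapped. Between same-numbered libraries the mutant was lower in 3 of 3 pairs, a pairing that is uncertain within batch C.

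Pooled over libraries, 187 of 860 molecules were Spc24 in MPP4 mutants (21.7%), against 671 of 1577 in MPP4 controls (42.5%). In HSC, 107 of 398 were Spc24 in mutants (26.9%), against 93 of 233 in controls (39.9%). In MPP1, 13 of 86 were Spc24 in mutants (15.1%), against 175 of 390 in controls (44.9%). The MPP1 shares rest on the values that chose Spc24, and in HSC single libraries overlapped. The shares carry no p-value, because they are built from the members themselves.

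**Figure D4:**
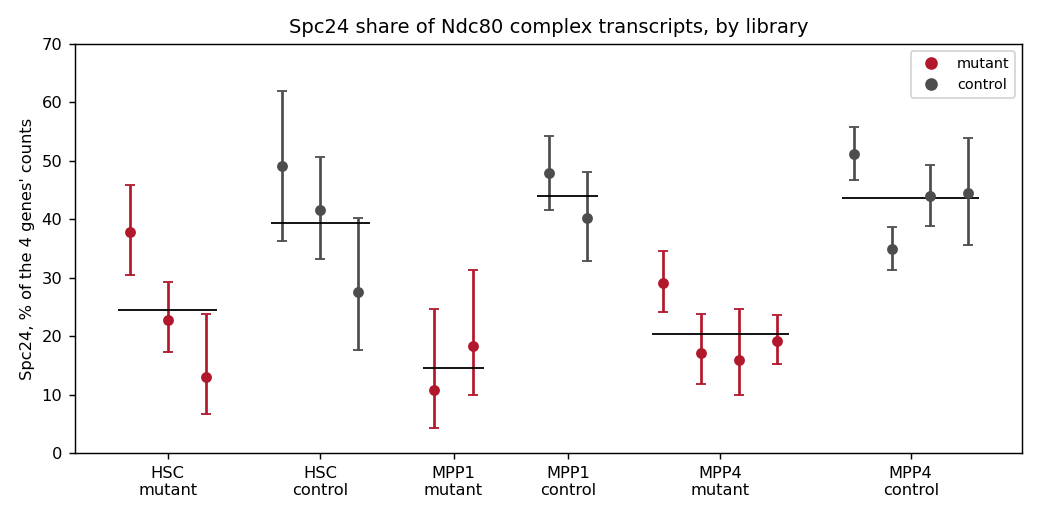
Share of Spc24 among the counted molecules of Spc24, Spc25, Ndc80 and Nuf2 in each library (points) with Wilson 95% intervals that cover counting error only, and group means as lines; mutants (red) stand left of controls (grey). In MPP4 the mutants lie at 16.0 to 29.1% and the controls at 34.98 to 51.3%.

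Between populations, all 4 members rose in MPP4 relative to HSC, in mutants and in controls. In mutants the log2 difference, MPP4 minus HSC within ID numbers, was 0.90 for Spc24 (SE 0.25, edgeR adjusted p = 0.0125) and 1.26 for Spc25 (SE 0.24, edgeR adjusted p = 0.000225). It was 1.03 for Ndc80 (SE 0.33, edgeR adjusted p = 0.0345) and 1.15 for Nuf2 (SE 0.27, edgeR adjusted p = 0.00314). All 4 passed and were higher, where 12.7% of genes passed in either direction and 7.04% were higher. The Spc24 call in mutants ended with DESeq2 (adjusted p = 0.0677), when batch replaced the ID number as the block (edgeR adjusted p = 0.0657), in batch C alone (edgeR adjusted p = 0.173) and without the ID number of HSC mutant 1 (edgeR adjusted p = 0.157) or of HSC mutant 3 (edgeR adjusted p = 0.0651). The call of Ndc80 in mutants ended under the same 5 settings and without the ID number of HSC mutant 2, which also ended that of Nuf2.

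In controls the same difference was 1.71 for Spc24 (SE 0.23, edgeR adjusted p = 2.41e-06) and 1.32 for Spc25 (SE 0.26, edgeR adjusted p = 0.000531). For Ndc80 it was 1.35 (SE 0.38, edgeR adjusted p = 0.0169) and for Nuf2 1.29 (SE 0.34, edgeR adjusted p = 0.00943). Again all 4 passed as higher, where 9.82% of genes passed and 5.82% were higher. For Spc24 the MPP4 controls, at 100.2 to 197 CPM, did not overlap the HSC controls, at 43.0 to 45.4 CPM. How many of all genes had that pattern was not counted. The lowest of these MPP4 values is that of control 2, which carries no weight in the fitted difference because no other library shares its ID number. DESeq2 kept 2 of the 4 calls, Spc24 and Spc25, as did batch C alone and the fits that left out HSC control 1 or HSC control 2 with all libraries of its ID number. The Ndc80 call also ended when batch replaced the ID number. The rise of Spc24 was the lowest of the 4 in mutants and the highest in controls, and the test of that change is the one given above.

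Other kinetochore genes rose alongside: 24 of 51 passed as higher in MPP4 than in HSC in mutants and 25 of 51 in controls, with 0 lower in either. DESeq2 called 16 in controls, and 15 and 14 passed without the ID numbers of HSC control 1 and HSC control 2. In controls, 4.002 to 11.7% of all genes were called in either direction over the settings tried. The list's median was 0.93 in mutants and 1.04 in controls, against -0.05 and 0.00 over all genes. Among those with the smallest adjusted p in mutants were the outer kinetochore gene Cenpf (1.59), Cdca8 (1.48), the kinetochore motor Cenpe (1.54), Incenp (1.18), the checkpoint gene Bub1b (1.41), the cohesion protector Sgol2a (1.98) and Cenpl (1.51). In controls they included Cenpe (1.68), the checkpoint kinase Ttk (2.18), Incenp (1.29), Cenph (1.51), Mad2l1 (1.36), Cenpk (1.92) and Cdca8 (1.23). All 4 genes of the chromosomal passenger complex passed in both genotypes. Of the inner kinetochore network, 5 of 18 passed in mutants and 6 of 18 in controls, and of the Mis12 complex with Knl1 1 of 6 in mutants and 2 of 6 in controls. Mitotic genes outside the kinetochore passed in 15 of 17 cases in mutants and 14 of 17 in controls.

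MPP1 minus HSC in controls shares the HSC controls with the contrast above. It gave a log2 difference of 1.08 for Spc24 (SE 0.27), shown without a p-value, 0.44 for Spc25 (SE 0.30), 0.49 for Ndc80 (SE 0.44) and 1.16 for Nuf2 (SE 0.38, edgeR adjusted p = 0.378). Spc25 and Ndc80 had edgeR adjusted p-values of 1. The number of members that passed was 0 of 4, where 0.236% of genes did, and DESeq2 also called 0. Of the 3 partners 1 (Nuf2) had an unadjusted p under 0.05, as did 5.34% of genes. The other kinetochore genes had a median of 0.63, with 0 of 51 passing and 24 at an unadjusted p under 0.05. Of the mitotic genes 3 passed: Cdk1 at 1.07, Nusap1 at 1.34 and Ube2c at 1.07.

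MPP4 minus MPP1 in controls gave a log2 difference of 0.63 for Spc24 (SE 0.25), again without a p-value, 0.88 for Spc25 (SE 0.28, edgeR adjusted p = 0.0823), 0.86 for Ndc80 (SE 0.40, edgeR adjusted p = 0.352) and 0.13 for Nuf2 (SE 0.35, edgeR adjusted p = 0.945). Here 0 of 4 members passed, where 3.58% of genes did, and DESeq2 called 0. Of the 3 partners 2 (Spc25 and Ndc80) had an unadjusted p under 0.05, beside 12.8% of genes. Only Ttk of the other kinetochore genes passed, at 1.57, with a list median of 0.32. Of the mitotic genes, Kif23 at 1.14 and Mki67 at 0.83 passed.

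Spc24 lies on the chromosome that carries Dnmt1, with 795.6 kb and 33 genes of the tables between them. No annotated gene overlaps Spc24. Of the 72 genes of the tables within 1 Mb of it, 30 were tested in MPP1, 38 in MPP4 and 37 in HSC, and 0 passed by edgeR in any of these populations. The number at an unadjusted p under 0.05 was 3 of 30 in MPP1, 6 of 38 in MPP4 and 5 of 37 in HSC, beside 4.86%, 7.11% and 10% of all genes. Their median log2 differences, mutant minus control, were 0.01, 0.10 and 0.07 in the same order. In MPP1 these neighbours ran from -1.17 for Cdkn2d to 0.83 for Kri1, and in MPP4 from -0.77 for Pde4a to 1.42 for AB124611. Spc24, at -1.16, lay below all of them in MPP4, and in HSC 4 of the 37 had a lower value than Spc24. Its MPP1 value of -2.66 chose it, and its place there is not a result.

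On the side away from Dnmt1, 6481 bases from Spc24, Kank2 was tested in HSC only, at -1.27 (SE 0.68, edgeR adjusted p = 0.548). Dnmt1 itself was at -0.18, -0.22 and 0.28 in MPP1, MPP4 and HSC. Between populations some neighbours passed. Among these, in mutants, MPP4 minus HSC was -8.17 for the erythropoietin receptor Epor, -4.03 for Icam4 and 1.59 for the cytokinesis gene Anln. In controls it was -4.67 for Epor, -2.40 for Dock6, -1.79 for Icam4, 0.83 for Dnmt1, 1.11 for Anln and 4.12 for AB124611.

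**Figure D5:**
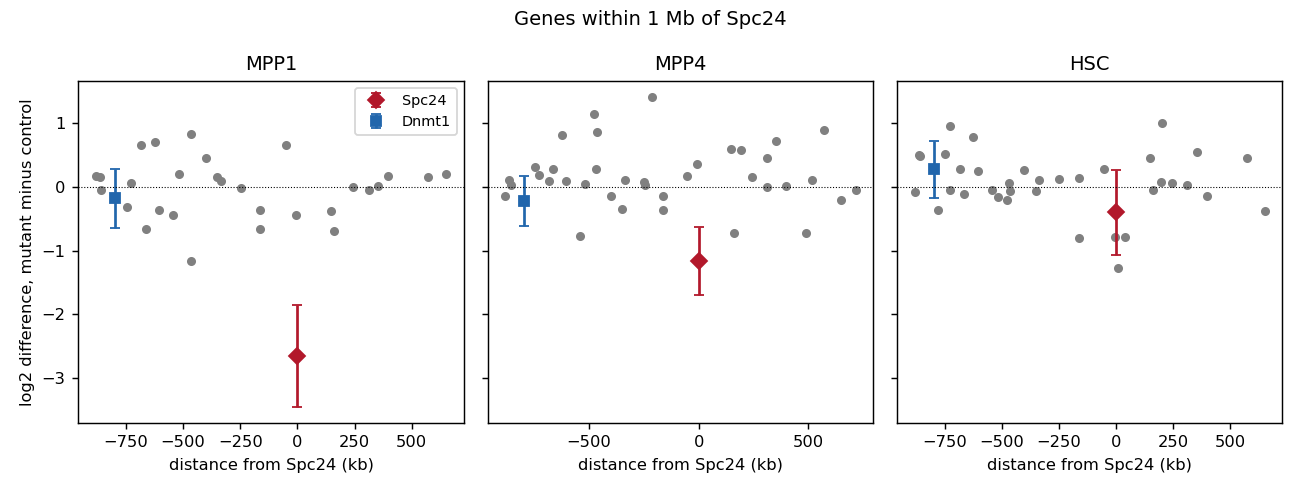
Log2 difference, mutant minus control, of genes within 1 Mb of Spc24 against their distance from it in kb, in MPP1, MPP4 and HSC; Spc24 (red) and Dnmt1 (blue) carry 95% intervals. Spc24 lies at -1.16 in MPP4, below every other tested gene in the window, while 4 genes lie lower in HSC, and its -2.66 in MPP1 is the value by which it was chosen.

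Across the 18 libraries, which share batches and ID numbers, the partners had higher correlations with each other than with Spc24. These libraries include the MPP1 libraries that chose Spc24, so its lower values were partly set by that choice. Pearson's r of log2 CPM was 0.81 between Spc25 and Ndc80, 0.69 between Spc25 and Nuf2 and 0.84 between Ndc80 and Nuf2. Spc24 had an r of 0.58 with Spc25, 0.50 with Ndc80 and 0.31 with Nuf2. With the mean of the mitotic genes, r was 0.41 for Spc24, 0.86 for Spc25, 0.80 for Ndc80 and 0.87 for Nuf2. After the mean of each group was taken away, the pairs of Spc24 with its partners had an r of 0.11, 0.36 and 0.31, and Spc25 with Ndc80 0.52, Spc25 with Nuf2 0.19 and Ndc80 with Nuf2 0.70. The order thus did not hold for every pair within groups, where Spc25 with Nuf2 lay below Spc24 with Ndc80 and Spc24 with Nuf2. These values describe libraries whose groups differ in level, and carry no test.

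The genes most like the mean of the 4 members over 18 libraries, among 10609 genes, were Brca1 (r = 0.93), 2810417H13Rik (0.88), Sstr2 (0.87), Cdk1 (0.87), Rrm2 (0.87), Ncapg (0.86), Rad51ap1 (0.86) and Mpeg1 (0.86). Spc24 alone was most like Kbtbd11 (r = 0.80), Kcnab2 (0.80), Paqr5 (0.78), Ggt5 (0.76) and Lrrc8c (0.76). On that list of 10612 genes its partners ranked 189 (Spc25), 484 (Ndc80) and 1786 (Nuf2). These ranks also include the MPP1 values that chose Spc24.

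The authors' deposited table gives Spc24 a log2 fold change of -1.67 in MPP1 (SE 0.37), -0.89 in MPP4 (SE 0.30, adjusted p = 0.592) and -0.18 in HSC (SE 0.35, adjusted p = 0.9999). In the authors' deposited table the partners in MPP4 were at 0.35 for Spc25, 0.37 for Ndc80 and 0.52 for Nuf2, with adjusted p-values of 0.9996, and in HSC at 0.26, 0.26 and 0.58, with adjusted p-values of 0.9999. In MPP1 the authors' deposited table has Spc25 at -0.66, Ndc80 at -0.22 and Nuf2 at -0.17. The signs were those of the edgeR fits for all 4 genes in all 3 populations, and the sizes of the Spc24 differences were smaller.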

How the data were processed

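Per the labels' protocols, cells were sorted into lysis buffer and libraries made by CEL-Seq2, which tags each molecule with a unique molecular identifier (UMI). The deposited tables hold estimated counts for 29717 symbols in 18 libraries. All 1557 values from 1000 up (100%) lay on the grid of a collision correction for 4096 UMIs. Per the submitters' processing notes the build was mm10 and the tools R 3.4.0 and DESeq2; which aligner, counter and annotation they used is not given in the sources used here. Per the file headers, the authors' DESeq2 tables hold a mean signal, a log2 fold change, a test score and a p-value.

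Estimated counts were used as deposited. Each population was fitted with edgeR 4.0.16 in R 4.3.3: TMM, minimum count 10, robust quasi-likelihood test, terms for genotype and batch (no batch term in MPP1), Benjamini-Hochberg over all genes, threshold 0.05. Population differences and the difference of mutant effects came from 1 fit of the 18 libraries that was blocked by ID number. MPP4 mutant 2 and MPP4 control 2 share their ID numbers with no other library, so they carry no weight in these differences. CPM values share 1 TMM scale, and log2 CPM has a prior count of 2. Intervals have a level of 95% and cover counting error where given for single libraries. Standard errors are the log2 difference divided by the root of F. The test scripts were tested on simulated data.

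The members, gene lists and comparisons were chosen with earlier results of these data known. The text names the members, the up to 8 kinetochore genes with the smallest adjusted p among those that passed, the genes most alike in Pearson's r, neighbours that passed or lie nearest, and Dnmt1. Some genes that this rule names are not reported here. HSC libraries were set side by side by replicate number, where same-numbered mutants and controls deviated together (r = 0.46, 0.22 and 0.20 for the 3 pairs, each over 0.1). HSC mutant 3 also deviated with control 2 (r = 0.223), and replicate numbers in MPP1 and MPP4 set these ID numbers side by side. The numbers thus do not settle the pairing within batch C. The alternatives were DESeq2 1.42.0, its size factors, 2 other filters, other batch or block terms, all 18 libraries in 1 fit, batch C only and each library or ID number left out.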

Additional observations from a re-analysis of the deposited data

How the results depend on the processing

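In 3 of the comparisons the number of members that passed never moved: 0 of 4 in HSC, 1 of 4 in MPP1 (Spc24) and 0 of 4 for the difference of mutant effects. Spc24 was chosen by the MPP1 difference, so nothing is read from its count there. In MPP4, 1 member (Spc24) passed with no filter on low counts and 1 in batch C only. For MPP4 minus HSC in controls, 2 passed with DESeq2 and 2 in batch C only, and leaving out ID numbers gave 2 to 4. For MPP4 minus HSC in mutants, 2 passed with DESeq2, 2 when batch replaced the ID number as the block and 2 in batch C only, and leaving out ID numbers gave 2 to 4. For MPP1 minus HSC in controls, 1 passed with no filter and 0 to 1 without single ID numbers. For MPP4 minus MPP1 in controls, 1 passed in batch C only and 0 to 1 without single ID numbers. The causes were not tested.

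With the replicate block the members that passed numbered 0 in HSC, 0 in MPP4 and 1 in MPP1, so the block changed no call of a member. Libraries were set side by side by number in HSC only, although each same-numbered MPP1 pair had r = 0.107. In MPP4, pairs 2 and 4 had r of -0.107 and -0.110. Genes called with the block were 40 in HSC, against 22 without it, and 43 in MPP1, against 18.

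Signs reversed for Spc25 in MPP4 in batch C only (-0.10) and for Nuf2 in MPP1 without control 2 (0.31) or mutant 2 (0.05), with a range from -0.598 to 0.31 over single libraries. For Nuf2 in MPP4 minus MPP1 in controls it reversed without the ID number of HSC control 2 (-0.39), with a range up to 0.48. For the difference of mutant effects, Spc25 reversed when batch replaced the ID number (0.036) and without the ID numbers of HSC control 1 (0.01), mutant 2 (0.34) and mutant 3 (0.05), its lowest value being -0.51. Ndc80 reversed without mutant 2 (0.00031, lowest -0.50) and Nuf2 without control 2 (0.029, lowest -0.32). The Spc24 difference kept its sign throughout: -3.16 to -2.36 in MPP1, -1.72 to -0.64 in MPP4 and -0.72 to -0.08 in HSC. Its MPP1 range describes the values that chose it and is not a result. The share of all genes called ran from 0.0547 to 0.820% in HSC (0.241% as reported), from 0.0107 to 0.485% in MPP4 (0.0852%) and from 0.0377 to 0.885% in MPP1 (0.225%). For MPP4 minus HSC it ran from 5.03 to 14.0% in mutants (12.7%) and from 4.002 to 11.7% in controls (9.82%). The 4 and 9 molecules of Spc24 in MPP1 mutants limit the precision there.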
